A study of Homo sapiens with 12 samples.

Results

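The change that daunorubicin (DNR) made in cells given the SUMOylation inhibitor ML-792 at the same time was measured in HL-60, a human promyelocytic leukaemia cell line, from 6 of the 12 libraries of the study: the 3 libraries of cells given both drugs (ML-792+DNR) against the 3 of cells given ML-792 alone. These 6 libraries were taken by their labels and raw counts, with the replicate number as a block, and no measured value was used to choose them. Polyadenylated RNA was sequenced after 3 h. The dose of DNR was 1 µM and that of ML-792 was 0.5 µM, so that all 6 libraries came from cells exposed to the SUMO inhibitor. The other 6 libraries, 3 of DNR alone and 3 of the DMSO control, gave the same contrast without the inhibitor and are used here only for comparison. All 12 libraries came from 1 cell line, and the replicate numbers stand for separate experiments according to the methods of the study.

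DNR is an anthracycline used against acute myeloid leukaemia. It intercalates into DNA, traps topoisomerase II on cleaved DNA and evicts histones, and cells answer genotoxic drugs with DNA damage signalling, induction of NF-kB and stress-activated kinase targets, and loss of short-lived transcripts. SUMO is a small protein that is joined to lysines of other proteins, many of them transcription factors and co-repressors on chromatin, through an E1 enzyme made of SAE1 and UBA2. ML-792 inhibits that E1, so that new SUMO conjugates are not made while SUMO proteases continue to remove old ones. The contrast of ML-792+DNR with ML-792 asks which transcripts DNR changes in the presence of this inhibitor.

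The 6 libraries held 28647951 to 42015365 reads in genes. MPO, the myeloperoxidase that marks promyelocytes, had between 10090.3 and 12204 CPM (counts scaled to the library size and TMM factor) in all 12 libraries. PRTN3, AZU1, CTSG, CD33 and MYB, further markers of HL-60 identity, had at least 25.8 CPM in every library. ELANE, a granule protease also taken as such a marker, had only 0.324 to 4.03 CPM. No read in the ML-792+DNR libraries fell on 8 of 12 erythroid and megakaryocyte markers, 5 of 12 lymphocyte markers and 6 of 13 stromal and epithelial markers. The summed CPM of these 3 marker lists ran from 3.44 to 13.8 across both groups with ML-792. PRTN3, another granule protease, was highest in replicate 3 of both groups with ML-792. In ML-792 it had 777 CPM there against 120.2 and 133 in replicates 1 and 2, and in ML-792+DNR 505 CPM against 251 and 206. AZU1 and ELANE were also highest in replicate 3 of both groups, whereas CTSG was highest in replicate 1. Replicate numbers paired the libraries: deviations from the group mean correlated at 0.148 to 0.368 between same-numbered ML-792 and ML-792+DNR libraries, against -0.254 to 0.016 between differently numbered ones. Such deviations cancel within a group, so the ranges are linked and the latter is no independent baseline. Transcripts of the mitochondrial genome took 6.37%, 2.49% and 3.48% of reads in ML-792+DNR replicates 1, 2 and 3, and 5.12%, 3.27% and 3.29% in ML-792.

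DNR raised 571 genes and lowered 386 genes in the presence of ML-792, out of 13696 genes tested. A gene was called, and is said below to have risen or fallen, when the edgeR quasi-likelihood test gave a Benjamini-Hochberg adjusted p below 0.05 and the change was at least 2-fold. The background rates of such calls were 4.17% for higher, 2.82% for lower and 6.99% for either direction. Because RNA of whole cultures was scaled per library, fewer cells with a transcript and less of it per cell cannot be told apart. The rises reached further than the falls. At least 4-fold changes were found for 158 raised and 46 lowered genes, and at least 8-fold changes for 49 raised and 5 lowered genes. With no minimum fold, 3203 genes were higher and 3187 lower, and the median log2 change of all tested genes was 0.02. The TMM scaling holds the middle of the changes near 0, so that these values cannot show whether total mRNA changed. In 2917 genes (21.3%) every ML-792+DNR library lay above every ML-792 library, and in 2942 genes (21.5%) every one lay below. Leaving out the 4 libraries of replicate 1 reduced the number of raised genes to 369, and testing only genes with a mean of at least 1 CPM left 304 raised and 252 lowered genes. Of the called genes, 21 had only 1 to 3 reads in all in the lower group, so that the size of their change is poorly fixed.

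**Figure D1:**
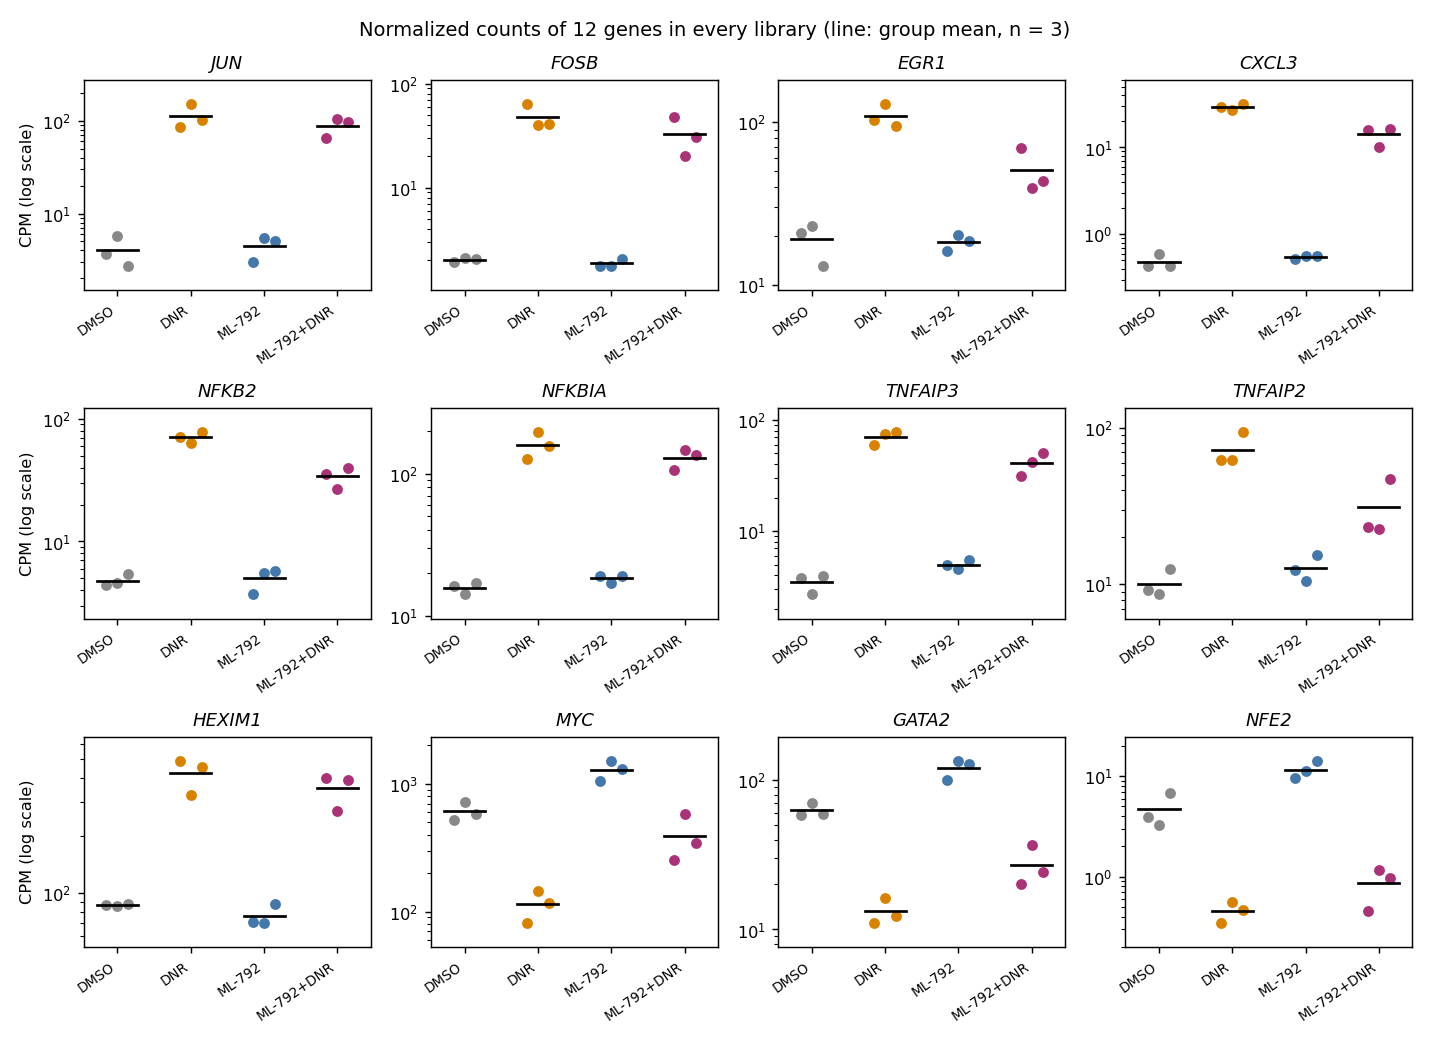
Normalized counts (CPM, log axis) of 12 genes in each of the 12 libraries, by group, with 1 point per library in the order of replicates 1, 2 and 3 and a line at the group mean (n = 3). The ML-792+DNR libraries lie above the ML-792 libraries for the first 9 genes, from JUN to HEXIM1, and below them for MYC, GATA2 and NFE2.

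Several of the raised genes carry, just before their start, letters of the sites that NF-kB or serum response factor bind, and 6 such promoters are printed here, chosen after the search, as examples from the NF-kB and early response genes described next. Each is the 250 bases before a transcription start in the RefSeq table (GRCh38.p14), 5′ to 3′ on the strand of the gene, with matches in capitals. Both strands were searched, and overlapping matches are joined. CXCL10 (chr4:76023498-76023747, minus strand) had NF-kB matches starting at -177 and -122 from the start. CXCL3 (chr4:74038690-74038939, minus strand) had matches at -79 and -78 that overlap each other. NFKB2 has 3 listed starts, and the window shown (chr10:102394328-102394577, plus strand) had matches at -107, -106 and -78. NFKBIA (chr14:35404750-35404999, minus strand) had a match at -81, and TNFAIP3 (chr6:137867009-137867258, plus strand) at -67 and -55. EGR1 (chr5:138465229-138465478, plus strand) had matches to the CArG box, the motif of serum response factor, at -105 and -83.
CXCL10: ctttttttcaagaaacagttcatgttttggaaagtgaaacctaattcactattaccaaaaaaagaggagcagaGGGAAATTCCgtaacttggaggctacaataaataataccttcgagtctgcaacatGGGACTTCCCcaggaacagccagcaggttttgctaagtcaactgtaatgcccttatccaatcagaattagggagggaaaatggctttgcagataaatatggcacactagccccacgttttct
CXCL3: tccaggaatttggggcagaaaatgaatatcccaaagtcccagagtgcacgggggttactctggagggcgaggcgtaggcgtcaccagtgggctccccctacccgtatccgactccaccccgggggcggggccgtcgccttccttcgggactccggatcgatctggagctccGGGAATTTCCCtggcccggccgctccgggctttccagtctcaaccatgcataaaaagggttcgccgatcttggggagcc
NFKB2: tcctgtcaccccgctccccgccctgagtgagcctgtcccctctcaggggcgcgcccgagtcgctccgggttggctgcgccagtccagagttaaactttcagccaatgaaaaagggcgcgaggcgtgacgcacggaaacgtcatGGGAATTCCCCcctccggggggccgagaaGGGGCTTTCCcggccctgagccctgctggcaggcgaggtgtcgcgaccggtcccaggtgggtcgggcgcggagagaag
NFKBIA: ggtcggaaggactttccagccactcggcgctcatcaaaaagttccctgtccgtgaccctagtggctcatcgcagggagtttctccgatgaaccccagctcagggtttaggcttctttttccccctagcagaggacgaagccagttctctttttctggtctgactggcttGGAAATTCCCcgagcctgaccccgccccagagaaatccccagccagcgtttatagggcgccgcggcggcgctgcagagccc
TNFAIP3: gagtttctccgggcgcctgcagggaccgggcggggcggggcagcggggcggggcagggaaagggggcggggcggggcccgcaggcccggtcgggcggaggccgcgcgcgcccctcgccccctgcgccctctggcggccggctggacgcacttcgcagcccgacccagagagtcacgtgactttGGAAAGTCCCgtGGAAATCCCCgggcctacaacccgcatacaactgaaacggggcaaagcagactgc
EGR1: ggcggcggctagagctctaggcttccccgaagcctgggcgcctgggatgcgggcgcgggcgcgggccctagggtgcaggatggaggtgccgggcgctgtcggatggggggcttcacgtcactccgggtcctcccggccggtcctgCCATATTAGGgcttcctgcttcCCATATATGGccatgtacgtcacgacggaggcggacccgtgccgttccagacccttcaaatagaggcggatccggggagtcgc

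Among all 35116 windows of that table, 5.21% held the NF-kB motif and 1.16% the CArG box. TGANTCA, the AP-1 motif, was in 6.57% of windows and TGACGTCA, the cyclic AMP response element, in 1.65%. Of the 83 genes under the naming rule that had a window, 11 held the NF-kB motif, 7 TGANTCA, 3 TGACGTCA and 4 the CArG box in at least 1 of their windows. Some of these genes fell: GATA2, TNFSF14 and ITGA5 with the NF-kB motif, and GPR183 and BCL2 with the CArG box. The others with either motif rose. Raised genes without any match included ICAM1, BCL3 and TNFAIP2. Only 70.0% of the tested genes had a window, so that a comparison of called genes with all genes would be void, and a match describes letters, not binding.

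Subunits of AP-1, the dimeric factor formed by FOS, JUN and ATF proteins, were among the genes with the largest rises. Of 15 tested members of the AP-1 list, 6 rose and none fell (median log2 change 0.26, against 0.02 for all tested genes). JUN, in GRCh37 at chr1:59242517-59249720, minus strand, had 3.02, 5.49 and 5.06 CPM in ML-792 replicates 1, 2 and 3 and 65.2, 103 and 96.0 CPM in ML-792+DNR. Every library with DNR was thus more than 10 times as high as every library without it. Its log2 change was 4.30 ± 0.17 (± SE, n = 3 per group, adjusted p = 1.4e-07). FOSB went from 1.76, 1.76 and 2.06 CPM to 47.8, 19.97 and 30.8 CPM (log2 4.09 ± 0.23, adjusted p = 7e-07), with the highest DNR value in replicate 1 and the lowest in replicate 2. ATF3, a factor induced by many stresses, went from 2.101, 1.01 and 1.79 CPM to 31.7, 15.7 and 23.9 CPM and kept the same order of replicates (log2 3.84 ± 0.19, adjusted p = 2.7e-07). JUNB, FOS and MAFF rose by 2.03, 1.78 and 1.49 on the log2 scale.

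Early response genes of the EGR, KLF, NR4A and IER families moved in both directions, with 11 of 28 tested members higher and 3 lower (median log2 0.34). EGR3, a zinc finger factor, was near its detection limit without DNR, at 0.0525, 0.0895 and 0.118 CPM (9 reads over 3 libraries), and had 4.87, 4.08 and 4.20 CPM with it (log2 5.63 ± 0.26, adjusted p = 2.3e-07). EGR1, whose CArG boxes are shown above, went from 16.2, 20.3 and 18.6 CPM to 69.1, 39.6 and 43.6 CPM. Its groups did not overlap, but replicate 1 rose further than replicates 2 and 3 (log2 1.45 ± 0.21, adjusted p = 0.00024). IER3, an early gene tied to NF-kB and survival, had 3.26, 6.41 and 4.94 CPM in ML-792 and 53.1, 51.5 and 60.6 CPM in ML-792+DNR (log2 3.53 ± 0.21, adjusted p = 1e-06). SGK1, a kinase induced by serum and glucocorticoids, rose by 3.22, the orphan nuclear receptors NR4A3 and NR4A2 by 2.92 and 1.61, and KLF5 by 1.82. The members that fell included the repressor HES1 (-1.28) and KLF6 (-1.25). Of 18 tested MAPK feedback genes, 2 rose, among them DUSP1, a phosphatase that turns off stress-activated kinases (log2 2.01).

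NF-kB dimers are held in the cytoplasm by IkB proteins until these are degraded, and the dimers then induce both new IkB and the enzymes that end the signal. Of 11 tested NF-kB subunits and IkB proteins, 7 rose and none fell (median log2 1.22). NFKBIA, which encodes IkB alpha, went from 19.1, 17.1 and 19.2 CPM to 107, 146 and 135 CPM, a log2 change of 2.79 ± 0.14 (adjusted p = 3.3e-07). NFKB2, the p100 precursor of the alternative pathway, went from 3.70, 5.52 and 5.77 CPM to 35.4, 26.7 and 40.0 CPM, and no library of one group reached the other (log2 2.77 ± 0.14, adjusted p = 3.8e-07). RELB, its partner, rose by 2.05, the nuclear IkB protein NFKBIZ by 2.07, NFKBIE by 1.22 and NFKBID by 1.16. BCL3, another nuclear IkB protein, rose by 3.86 ± 0.46 from only 7 reads over the 3 ML-792 libraries.

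In the wider list of NF-kB feedback and signalling genes, 7 of 27 tested members rose and none fell (median log2 0.16). TNFAIP3, the ubiquitin-editing enzyme A20 that shuts the pathway down, had 4.91, 4.57 and 5.44 CPM without DNR and 31.1, 42.2 and 50.9 CPM with it (log2 3.04 ± 0.15, adjusted p = 2.7e-07). The adhesion molecule ICAM1 went from 0.184, 0.239 and 0.176 CPM to 2.00, 0.935 and 2.93 CPM, with a wide spread among the DNR-treated libraries (log2 3.21 ± 0.29, adjusted p = 1.5e-05). SDC4, a heparan sulfate proteoglycan, rose by 2.503, the surface protein CD83 by 1.49, the deubiquitinase CYLD by 1.39 and the inhibitor of apoptosis BIRC3 by 1.31.

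Cytokines and chemokines were the list with the most raised members, 13 of 26 tested, while 1 fell (median log2 1.01). Among the tested genes with a mean of at least 1 CPM, 7 of the list rose. CXCL3, a chemokine that attracts neutrophils, was at 0.525, 0.567 and 0.559 CPM in ML-792 and at 16.1, 10.0 and 16.4 CPM in ML-792+DNR (log2 4.66 ± 0.19, adjusted p = 1.4e-07). Its relatives CXCL2 and CXCL8 rose by 2.48 and 2.66. CXCL10, which attracts T cells, had 2 reads over the 3 ML-792 libraries and 153 reads over the 3 ML-792+DNR libraries, a ratio of 79.7 after scaling for depth (95% exact interval 21.7 to 664, counting error only). The levels with DNR stayed low, at 0.785, 2.06 and 1.48 CPM. TNFSF9, the ligand of 4-1BB, rose by 2.71 and the growth factor HBEGF by 1.69, whereas TNFSF14, also called LIGHT, fell by 2.98 on the log2 scale, from 1.86, 2.15 and 2.71 CPM to 0.327, 0.240 and 0.276 CPM.

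The share of interferon regulators and sensors that was called exceeded the 6.99% of all tested genes, and that of interferon-stimulated effectors did not. Of 23 tested interferon regulators and sensors, 4 rose and 2 fell (median log2 -0.01), and of 37 interferon-stimulated effectors 1 rose and 1 fell (median 0.04). These single effector calls depended on the setting: none fell with DESeq2 or without ML-792 replicate 1, ML-792 replicate 3 or ML-792+DNR replicate 3, none rose without ML-792+DNR replicate 1, and 3 rose without ML-792 replicate 2, ML-792 replicate 3 or ML-792+DNR replicate 2. IRF7, a factor that drives type I interferon genes, went from 0.368, 1.10 and 1.85 CPM to 9.65, 3.93 and 10.1 CPM (log2 2.79 ± 0.45, adjusted p = 0.00049). IRF1 rose from 10.9, 10.7 and 12.9 CPM to 32.3, 29.8 and 34.2 CPM, a smaller change with a tighter spread (log2 1.48 ± 0.08, adjusted p = 4.9e-07). The endotoxin receptor TLR4 fell from 34.3, 33.6 and 30.0 CPM to 9.78, 17.6 and 12.5 CPM.

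**Figure D2:**
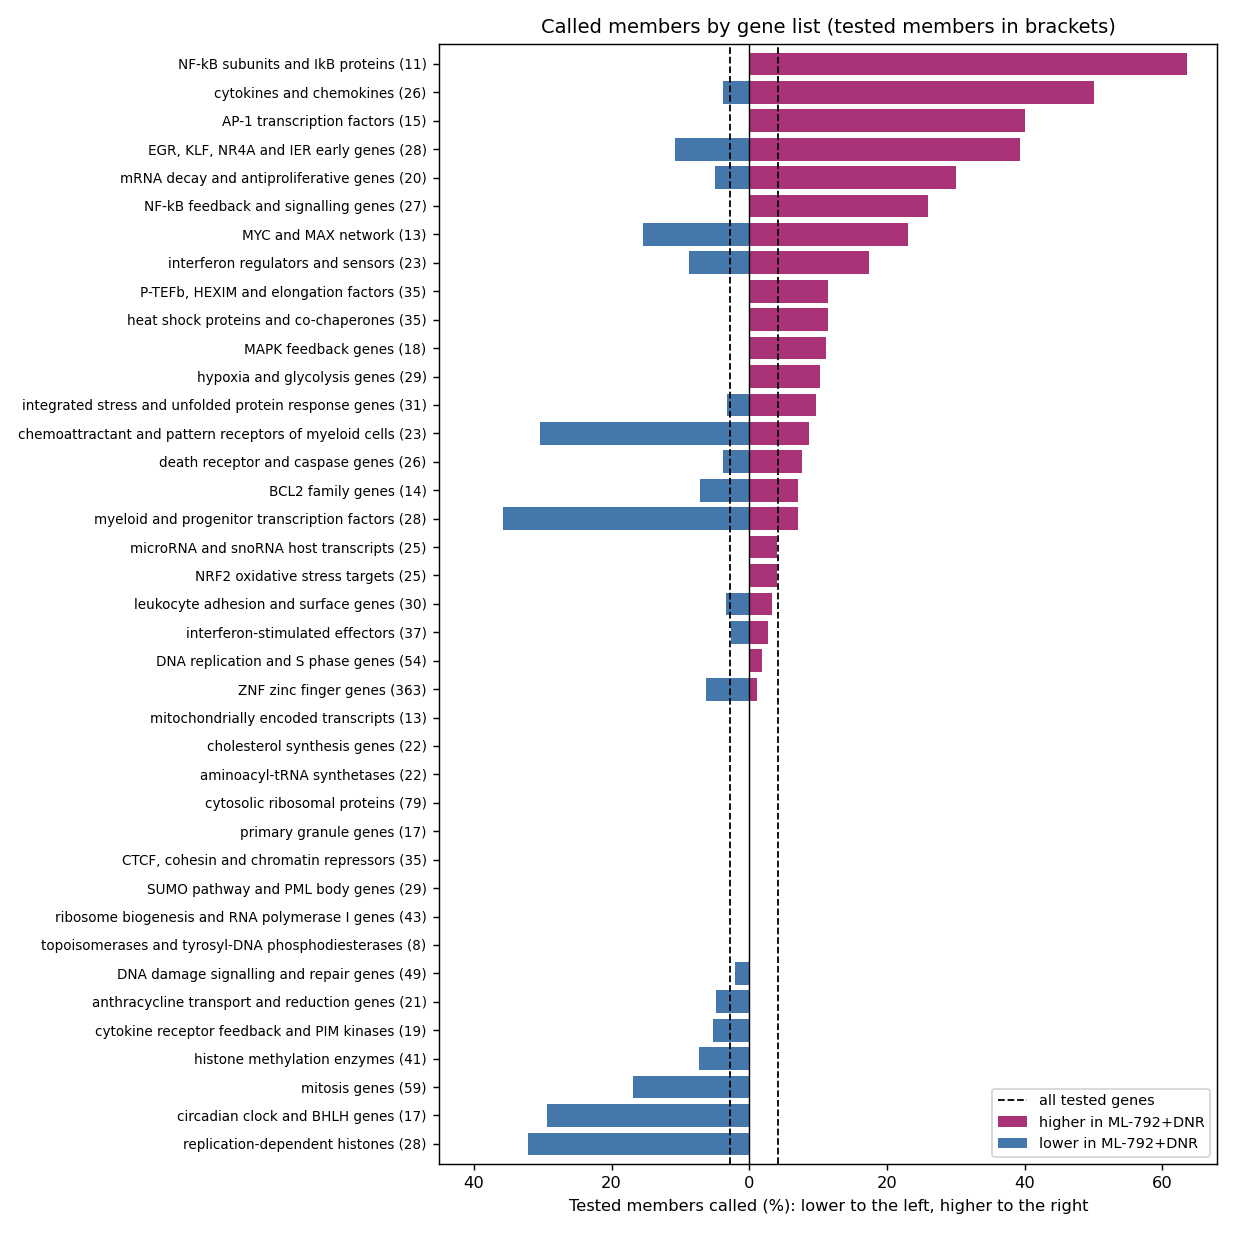
Share of the tested members of each gene list (number in brackets; lists with at least 8 tested members) that were called higher (right) or lower (left) in ML-792+DNR than in ML-792, with dashed lines at 4.17% and 2.82%, the shares among all tested genes. The list of the study's 8 genes and the list not reported here are not shown. NF-kB subunits and IkB proteins (7 of 11) and cytokines and chemokines (13 of 26) reach furthest to the right, and myeloid and progenitor transcription factors (10 of 28) furthest to the left.

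Of 20 tested mRNA decay and antiproliferative genes, 6 rose and 1 fell (median log2 0.30). BTG2, which recruits the deadenylase complex to transcripts, went from 0.289, 0.716 and 0.529 CPM to 8.60, 8.68 and 11.2 CPM (log2 4.22 ± 0.21, adjusted p = 2.7e-07). ZC3H12A, a ribonuclease that destroys cytokine mRNA, went from 7.67, 9.55 and 10.7 CPM to 33.0, 37.7 and 47.5 CPM, without overlap (log2 2.08 ± 0.09, adjusted p = 1.9e-07). The stress-induced GADD45B rose by 2.34, BTG1 by 1.62 and the AU-rich element binding protein ZFP36 by 1.56, while its relative ZFP36L2 fell by 1.32. CDKN1A, the p21 inhibitor of cyclin-dependent kinases, rose by 3.22 ± 0.59 (adjusted p = 0.0011).

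Most genes of the cell death machinery were not called, where 4.17% of all tested genes were called higher and 2.82% lower. PMAIP1, the pro-apoptotic BH3-only protein NOXA, had 61.6, 60.6 and 60.1 CPM in ML-792 and 168, 158 and 145 CPM in ML-792+DNR (log2 1.37 ± 0.06, adjusted p = 1.4e-07). The 3 values of each group lay close together. BCL2, which opposes it, fell from 309, 354 and 284 CPM to 101, 169.9 and 107 CPM (log2 -1.35 ± 0.11, adjusted p = 6.5e-06), and the other 12 of the 14 tested BCL2 family genes were not called. Of 26 tested death receptor and caspase genes, 2 rose and 1 fell. TNFRSF10D, a decoy receptor for the death ligand TRAIL, rose from 7.85, 7.22 and 6.38 CPM to 49.8, 22.2 and 34.7 CPM, and the TNF receptor TNFRSF1A fell by 1.12 on the log2 scale. The death receptor FAS rose by 1.04 ± 0.12, just past the 2-fold minimum, and was no longer called without ML-792 replicate 1 (log2 0.99), ML-792 replicate 3 (0.97) or ML-792+DNR replicate 3 (0.95).

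Among called genes, the 4 largest gains in CPM, a unit not corrected for transcript length, included the elongation regulator HEXIM1 and the polymerase subunit POLR2A. HEXIM1 (GRCh37 chr17:43225842-43229466, plus strand) encodes the inhibitory subunit that holds the elongation kinase P-TEFb in its inactive complex. It went from 71.2, 70.2 and 87.8 CPM to 399.5, 267 and 391 CPM (log2 2.19 ± 0.12, adjusted p = 5.8e-07), and replicate 2 had the lowest value of the treated libraries. POLR2A, the largest subunit of RNA polymerase II, went from 276, 249 and 249 CPM to 653, 441 and 526 CPM (log2 1.05 ± 0.08, adjusted p = 4.5e-06). It lay at the 2-fold limit and was no longer called without ML-792 replicate 1 (log2 1.00, just under the limit) or ML-792+DNR replicate 1 (0.97). ELL2 and ELL3, subunits of super elongation complexes, rose by 1.11 and 1.20, so that 4 of 35 tested genes of the P-TEFb list rose and none fell (median log2 0.01). Outside that list, FAM53C and the mRNA export factor NXF1 had the remaining gains among the 4 largest in CPM. Their means were 55.0 and 73.0 CPM in ML-792 and 204 and 239 CPM in ML-792+DNR.

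MYC, the growth-promoting transcription factor amplified in HL-60, had the largest loss in CPM of all called genes. Its transcript went from 1045, 1507 and 1296 CPM in ML-792 to 251, 584 and 344 CPM in ML-792+DNR (log2 -1.77 ± 0.12, adjusted p = 2.8e-06). The groups did not overlap, and the treated library of replicate 2 kept more of it than those of replicates 1 and 3. MXD1, which competes with MYC for its partner MAX, rose from 15.3, 15.1 and 13.5 CPM to 58.0, 40.8 and 53.4 CPM (log2 1.78 ± 0.10, adjusted p = 8.3e-07). MYCL rose by 2.35, and in all 3 of the 13 tested members of the network rose and 2 fell (median log2 -0.03). None of 43 tested ribosome biogenesis genes, many of which are MYC targets, was called (median log2 -0.08).

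EIF4A2, an RNA helicase of translation initiation, fell from 546, 475 and 440.1 CPM to 117, 189.5 and 131 CPM (log2 -1.77 ± 0.16, adjusted p = 1.4e-05). The splicing factor SRSF6 fell from 499, 479 and 484 CPM to 167, 228 and 172 CPM (log2 -1.38 ± 0.11, adjusted p = 4.8e-06). In both, the treated library of replicate 2 was the highest of its group but still below every ML-792 library.

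Most genes of the stress programmes other than AP-1 and NF-kB were not called. The heat shock, integrated stress and hypoxia lists still had a larger share called higher than the 4.17% of all tested genes. The NRF2 list did not. Of 35 tested heat shock proteins and co-chaperones, 4 rose and none fell (median log2 0.07): the co-chaperones BAG3 (1.83) and DNAJB4 (1.59) and the near-identical HSP70 genes HSPA1A (2.46) and HSPA1B (1.58), whose reads cannot be assigned with certainty. Of 31 tested genes of the integrated stress response and the unfolded protein response 3 rose and 1 fell (median 0.09). PPP1R15A, the phosphatase subunit GADD34 that restores translation, went from 9.59, 8.98 and 9.38 CPM to 33.2, 20.1 and 33.6 CPM (log2 1.61 ± 0.12, adjusted p = 5.3e-06). SQSTM1, an autophagy receptor, was the only one of 25 tested NRF2 targets that rose (1.43, list median 0.21). Of 29 tested hypoxia and glycolysis genes 3 rose, with the vasodilator peptide gene ADM at 2.75 and EPAS1, the hypoxia factor HIF-2 alpha, at 2.29. Only 1 of the list rose among genes with a mean of at least 1 CPM. Over the alternatives ADM ranged from 2.41 to 3.26 and EPAS1 from 1.47 to 3.12.

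Transcription factors of the myeloid and progenitor programme fell more often than they rose. Of 28 tested members 10 fell and 2 rose (4 without ML-792 replicate 3), and the median log2 change was -0.73. GATA2, a factor of haematopoietic stem and progenitor cells, had 100.4, 134 and 127 CPM in ML-792 and 20.1, 36.9 and 24.2 CPM in ML-792+DNR (log2 -2.18 ± 0.11, adjusted p = 2.9e-07). RUNX2 fell from 93.8, 89.9 and 80.3 CPM to 34.1, 42.3 and 30.6 CPM (log2 -1.31 ± 0.10, adjusted p = 5.1e-06). The members that fell also included MYB (-1.11), the lymphoid and myeloid regulators IKZF1 (-1.18) and IKZF2 (-1.28), the repressor GFI1 (-1.18) and ETV6 (-1.19), while BCL6 rose (1.38). MYB went from 545, 533 and 446 CPM to 205, 305 and 202 CPM and was under the 2-fold minimum without the 4 libraries of replicate 1 (log2 -0.97). NFE2, a factor of erythroid and megakaryocytic genes that is also expressed in myeloid cells, had the deepest fall among genes with at least 5 CPM, from 9.51, 11.2 and 14.2 CPM to 0.458, 1.15 and 0.964 CPM (log2 -3.72 ± 0.24, adjusted p = 1.6e-06).

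Receptors through which myeloid cells sense chemokines and microbes fell more often than they rose, 7 against 2 of 23 tested (median log2 -0.26). CCR2, the receptor of the monocyte chemoattractant CCL2, went from 3.52, 5.01 and 4.00 CPM to 0.294, 0.551 and 0.241 CPM (log2 -3.51 ± 0.24, adjusted p = 2.9e-06). CCR1 went from 3.23, 3.25 and 4.38 CPM to 0.327, 0.431 and 0.448 CPM (log2 -3.14 ± 0.23, adjusted p = 3.4e-06). CCR7, which guides leukocytes to lymph nodes, had a log2 change of -2.41 and the oxysterol receptor GPR183 one of -2.299. In GPR183 the treated library of replicate 2 kept 32.8 CPM against 11.4 and 9.26 in replicates 1 and 3. CXCR4 rose (1.72). Other large falls were in TAGAP, a GTPase-activating protein of leukocytes (-2.77), the deubiquitinase USP44 (-2.25), C16orf54 (-2.93) and FAM212A (-2.32). Among 30 tested leukocyte adhesion and surface genes only CD69 rose and the integrin ITGA5 fell. CD69, at log2 1.00, lost its call in 16 of the 24 alternative settings, with values from 0.79 up to just under 1, and ITGA5 (-1.02) was not called without ML-792 replicate 1 (-0.95) or ML-792+DNR replicate 1 (-0.92).

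Of 59 tested mitosis genes 10 fell and none rose, with a median log2 change of -0.48. In 39 of the 59 every ML-792+DNR library lay below every ML-792 library, against 21.5% of all tested genes. Without the 4 libraries of replicate 1, 6 fell. CENPA, the histone variant of centromeres, fell from 27.2, 18.4 and 30.5 CPM to 7.78, 8.44 and 8.51 CPM (log2 -1.59 ± 0.15, adjusted p = 1.7e-05). KIF20A, a kinesin of the central spindle, fell from 58.2, 42.2 and 58.0 CPM to 20.4, 16.1 and 20.7 CPM (log2 -1.46 ± 0.09, adjusted p = 1e-06). Of 54 genes of DNA replication and S phase only E2F1 was called, which rose by 1.04 and lost its call without ML-792+DNR replicate 3 (log2 0.97), and the list median was 0.11. In 21 of these 54 genes every ML-792+DNR library lay above every ML-792 library, and in 7 every one lay below. The shares among all tested genes were 21.3% above and 21.5% below.

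Replication-dependent histone genes fell in 9 of 28 tested members (median log2 -0.69). Their transcripts end without a poly(A) tail, and the libraries were poly(A)-selected: all 90 listed genes together had 15.7 to 27.7 CPM in ML-792+DNR and 17.7 to 39.3 CPM in ML-792, and no member was called among genes with a mean of at least 1 CPM. Without ML-792 replicate 2 only 5 members fell, and without the 4 libraries of replicate 2 only 2. HIST1H4H, for example, went from 1.42, 2.89 and 1.09 CPM to 0.294, 0.288 and 0.517 CPM, and it shares most of its coding sequence with the other H4 genes.

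DNA damage signalling and repair genes were nearly all under the 2-fold limit, where 2.82% of all tested genes were called lower. Of 49 tested members 1 fell, LIG4, the ligase of non-homologous end joining, from 29.5, 28.6 and 23.6 CPM to 10.2, 11.5 and 8.99 CPM (log2 -1.41 ± 0.09, adjusted p = 1.5e-06), and the list median was -0.17. In 22 of these 49 genes every ML-792+DNR library lay below every ML-792 library, and in 4 every one lay above. The shares among all tested genes were 21.5% below and 21.3% above. None of 8 topoisomerases and tyrosyl-DNA phosphodiesterases was called. TOP2A and TOP2B, the targets of DNR, had log2 changes of -0.28 and -0.22. None of 29 tested SUMO pathway and PML body genes was called either (median -0.09), and UBA2, the catalytic subunit that ML-792 inhibits, had 353, 330.5 and 297 CPM in ML-792 and 328, 334 and 297 CPM in ML-792+DNR. In the list of CTCF, cohesin and chromatin repressors none of 35 was called (median -0.19). In 18 of these 35, nevertheless, every ML-792+DNR library lay below every ML-792 library, and in 3 every one lay above. CTCF, the insulator protein, went from 145, 129.9 and 129.7 CPM to 77.6, 91.3 and 73.8 CPM, a log2 change of -0.74 ± 0.09 (adjusted p = 8.6e-05) that is below 2-fold with no overlap of the groups.

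Of 41 tested histone methylation enzymes 3 fell and none rose (median log2 -0.28), the methyltransferases SETD2 (-1.18) and KMT2C (-1.14) and the PRC2 cofactor JARID2 (-1.08); all 3 were under 2-fold without the 4 libraries of replicate 1, and JARID2 also without ML-792+DNR replicate 1 alone (log2 -0.99). In 21 of the 41 enzymes every ML-792+DNR library lay below every ML-792 library, and in 5 every one lay above. The shares among all tested genes were 21.5% below and 21.3% above. Of 363 tested genes with a ZNF symbol 23 fell and 4 rose (median -0.17). The number that fell was 15 without ML-792 replicate 1 and 13 without the 4 libraries of replicate 1, and the number that rose was 7 without ML-792 replicate 3 or ML-792+DNR replicate 2. Among 17 tested circadian clock and BHLH genes 5 fell, led by the nuclear receptor NR1D1 (-1.48), and none rose (median -0.40), and 3 fell without the 4 libraries of replicate 1.

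The remaining lists gave few or no calls. No member was called among 79 cytosolic ribosomal proteins (median log2 0.23), 17 primary granule genes (0.08), 22 aminoacyl-tRNA synthetases (-0.08), 22 cholesterol synthesis genes (-0.01) or 13 mitochondrial transcripts (-0.00), nor among the 2 tested members each of the lymphocyte, erythroid and stromal marker lists. In 42 of the 79 ribosomal protein genes, nevertheless, every ML-792+DNR library lay above every ML-792 library, where the background was 21.3%, and 5 of the 79 were called higher without ML-792 replicate 3. MPO had a log2 change of -0.05. Of 19 cytokine receptor feedback and PIM kinase genes 1 fell, but none without ML-792 replicate 1 or ML-792+DNR replicate 1. Of 21 anthracycline transport and reduction genes 1 fell, the nitric oxide synthase NOS3, which was not called with DESeq2 (adjusted p = 0.10), without the replicate block (0.069) or when any of 5 of the 6 libraries was left out (0.055 to 0.15). Of 25 microRNA and snoRNA host transcripts 1 rose, MIRLET7BHG (1.76).

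Genes that rose tended to be shorter than the genes tested. A genomic span could be taken from GENCODE on GRCh37 for 90.0% of tested genes, 82.8% of raised and 85.0% of lowered ones. The median span was 12.1 kb for raised genes, 24.4 kb for lowered genes and 30.5 kb for all tested genes. Among genes under 5 kb 8.29% were called higher and 2.76% lower, and among genes of 200 kb or more 0.864% were called higher and 3.95% lower. The median log2 change went from 0.24 in the shortest class to -0.30 in the longest, and in DNR vs DMSO from 0.15 to -0.20. The shortest class also had the lowest expression, with a median of 2.18 CPM in ML-792 against 17.2 to 33.1 CPM in the others, and its part in the pattern was not tested.

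**Figure D3:**
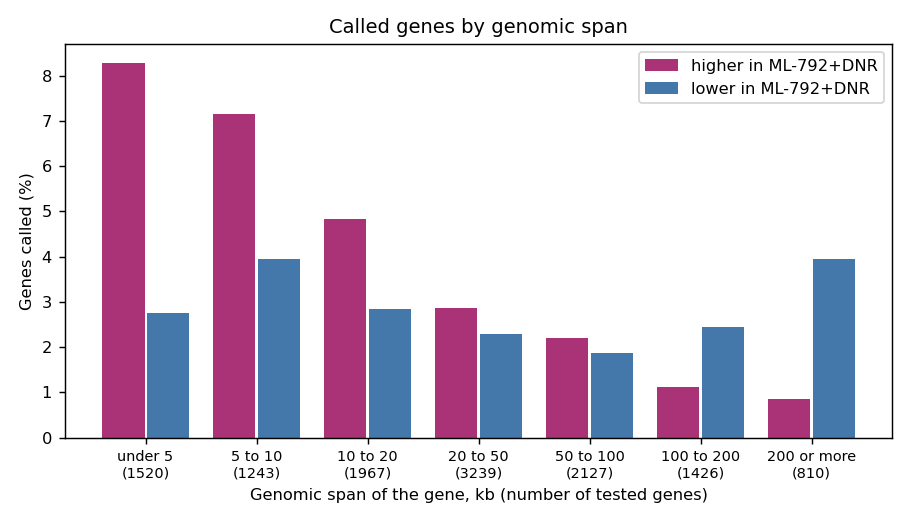
Share of tested genes called higher or lower in ML-792+DNR than in ML-792 (y axis, %) in 7 classes of genomic span (x axis, kb; number of genes in brackets). The share called higher declines from 8.29% under 5 kb to 0.864% at 200 kb or more, whereas the share called lower stays between 1.88% and 3.95%.

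The same contrast without the inhibitor, DNR vs DMSO, shares no library with the one above. It gave 599 raised (4.37%) and 429 lowered genes (3.13%). Of the genes raised by DNR, 428 were called in both backgrounds, 74.96% of those called with ML-792 and 71.5% of those called without it. Of the lowered genes 240 were called in both, 62.2% and 55.9% of the respective lists. No gene was called in opposite directions. The 143 raised and 146 lowered genes called only with ML-792 held no gene for which the 2 changes differed in the test of the interaction, nor did the 171 and 189 called only without it.

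**Figure D4:**
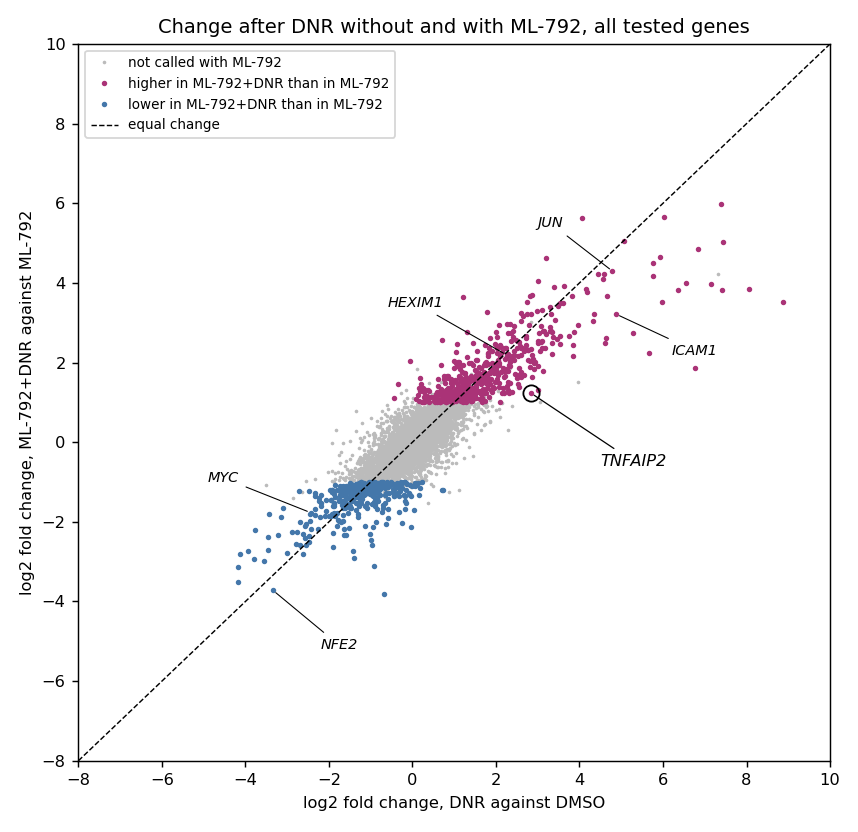
log2 fold change after DNR for all 13696 tested genes, without ML-792 on the x axis and with ML-792 on the y axis; genes called with ML-792 are coloured and the dashed line marks equal change. No gene was called in opposite directions, and TNFAIP2 (circled) lies below the line at 2.84 and 1.23.

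In the interaction, which tests whether the DNR change differed with ML-792, no gene (0.0%) was called more positive and 1 gene (0.0073%) more negative, while 1077 genes had an unadjusted p under 0.05 and DESeq2 called 2 and 8. The exception was TNFAIP2 (GRCh37 chr14:103587813-103603776, plus strand), a TNF- and NF-kB-induced gene that shapes membrane protrusions. It had 9.20, 8.63 and 12.5 CPM in DMSO replicates 1, 2 and 3 and 62.5, 62.2 and 93.7 CPM in DNR. With the inhibitor it had 12.4, 10.5 and 15.4 CPM without and 23.4, 22.5 and 47.5 CPM with DNR. It thus rose in both backgrounds, by 2.84 ± 0.12 without and by 1.23 ± 0.12 with ML-792 on the log2 scale, and the treated libraries with the inhibitor all lay below those without it. The difference of the changes was -1.61 (adjusted p = 0.011, with the replicate block). Without the block the adjusted p was 0.85. It was 0.056 when DMSO replicate 1 was left out, 0.078 for DMSO replicate 3, 0.057 for replicate 3 of DNR and 0.090 for replicate 2 of ML-792.

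For the 8 genes that the study examined, which were thus picked with such data in view, 6 rose and 1 fell with ML-792, and the changes without it were listed in the same directions. The study chose NFKB2, EGR1, ICAM1 and MYC partly because ML-792 altered their DNR response more than 2-fold. That criterion was read from these same libraries, so smaller changes of these genes with ML-792 are no independent evidence. CXCL10, FOSB and IER3 came from its array data, and CTCF from its SUMO proteomics. With and without ML-792 the log2 changes were 5.99 and 7.39 for CXCL10, 3.21 and 4.88 for ICAM1, and 3.53 and 5.98 for IER3. They were 2.77 and 3.88 for NFKB2, 1.45 and 2.54 for EGR1, and 4.09 and 4.57 for FOSB. MYC had -1.77 and -2.44, and CTCF -0.74 and -0.48. With edgeR on all libraries and the count filter none of these differences passed the interaction test. DESeq2 called NFKB2 (difference -1.12, adjusted p = 9.58e-05) and IER3 (-2.46, adjusted p = 0.000502) more negative with ML-792, and without the 4 libraries of replicate 1 edgeR called NFKB2, IER3 and EGR1 (adjusted p = 0.015, 0.015 and 0.026). NFKB2 and IER3 were also called without ML-792 replicate 1 (0.0125 and 0.012), and IER3 without DMSO replicate 2 (0.020). With no count filter all 3 were called (0.00087, 8.4e-07 and 0.00998 for NFKB2, IER3 and EGR1). The nearest in the edgeR fit to all libraries with the count filter was IER3, with a difference of -2.46 ± 0.35 (adjusted p = 0.064). Its mean level without DNR was 4.87 CPM with ML-792 and 0.723 CPM without the inhibitor, and with DNR 55.1 and 43.6 CPM. The mean level of MYC without DNR was 1283 CPM with ML-792 and 609.5 CPM without the inhibitor.

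Over all genes that DNR changed on average of both backgrounds, the changes were slightly smaller with ML-792, and this small difference depended on single libraries. The 573 genes raised on average had a median log2 change of 1.503 with and 1.60 without ML-792, with a median difference of -0.13 (-0.056, -0.14 and -0.17 in replicates 1, 2 and 3), and 62.0% of them changed less with ML-792. The 388 genes lowered on average had medians of -1.22 and -1.36, a median difference of 0.13 (0.12, 0.16 and 0.093), and 63.7% changed less. Without ML-792 replicate 2 the difference of the raised genes was 0.047, and without ML-792+DNR replicate 2 it was 0.035 for raised and -0.034 for lowered genes, so that the sign turned. When genes were chosen by their call in ML-792+DNR vs ML-792, the medians were 0.041 and -0.064, and by their call in DNR vs DMSO -0.23 and 0.33. The difference between replicates was larger. With ML-792 the median change of the raised genes was 1.79, 1.05 and 1.33 in replicates 1, 2 and 3, and without it 1.81, 1.14 and 1.51. Replicate 1 also had the highest share of mitochondrial reads of the ML-792+DNR libraries and replicate 2 the lowest (6.37% and 2.49%), and their part in the size of the change was not tested.

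**Figure D5:**
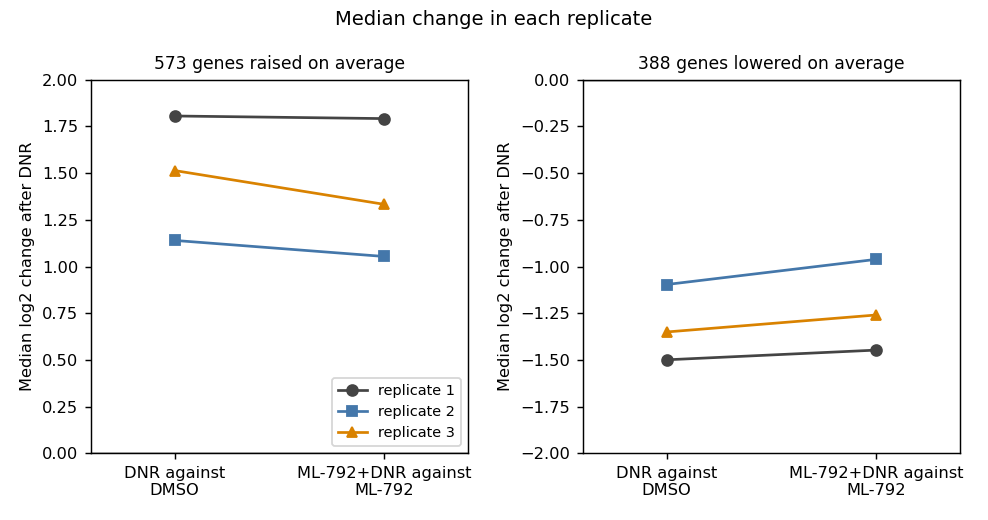
Median log2 change after DNR (y axis) in each replicate, without and with ML-792 (x axis), for the 573 genes raised and the 388 genes lowered by DNR on average. Replicate 1 has the largest and replicate 2 the smallest change in both panels, and each line moves toward 0 with ML-792 by less than replicates differ from one another.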

How the data were processed

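The authors made TruSeq stranded libraries of poly(A) RNA from HL-60 cells, 3 in each of 4 groups, and read them single-end. According to the study's methods and the submitters' processing notes, TopHat2 2.1.1 with Bowtie2 2.3.5.1 placed the reads on hg19 and HTSeq 0.11.1 counted them per gene. The deposited raw counts were used here. Whether counting used strand is not stated in these sources, which leaves genes that overlap or lie antisense to each other uncertain, and 26.6% to 29.2% of records had more than 1 alignment. The authors' table of scaled counts and their table of DESeq2 fold changes, p-values and group means were not used.

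The 5 counter rows were left out, and all columns were mapped. Reads in genes ranged from 28647951 to 46451654. Of 42157 genes 13696 passed filterByExpr by group (minimum count 10, total 15). Libraries of 1 group differed beyond sampling noise (chi-square per gene 16.1 to 79.1 within groups). A quasi-likelihood model of edgeR 4.0.16 (R 4.3.3), scaled by TMM, was fitted to all 12 libraries with group and replicate number as terms and checked on simulated data. Pairing comes from the shared replicate numbers, and same-numbered libraries deviated together in every pair of the main contrast. Intervals cover counting error only. An exact permutation test of 3 against 3 libraries cannot go below p = 0.1 and was not used.

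The members, gene lists and tests were chosen with earlier results of these data known. Named genes were taken from the study's 8 genes, the 8 largest rises and falls (groups not overlapping, the higher one averaging 5 CPM or more) and the 4 largest CPM gains and losses among called genes, up to 3 called members (at least 1 CPM) or else the 2 most abundant tested members of each of 44 lists, of which 1 is not reported here, and genes with a called interaction (at least 5 CPM). Further called members are given by value only. Gene positions are from GENCODE on GRCh37, promoters from RefSeq (GRCh38.p14). Alternatives were DESeq2 1.42.0, limma 3.58.1 voom, other scalings and filters, no replicate block, the 6 libraries only, other fold limits, and leaving out each library or replicate.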

Additional observations from a re-analysis of the deposited data

Results flagged for a closer look

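The change of TNFAIP2 after DNR differed between cells with and without ML-792. Its log2 change was 1.23 with the inhibitor and 2.84 without it, a difference of -1.61 in the test of the interaction (edgeR, adjusted p = 0.011), and it rose in 3 of 3 replicates in both backgrounds. It was the only gene called in that test among 13696. Over the alternatives the difference lay between -1.81 and -1.50, and it lost its call without the replicate block (adjusted p = 0.85) and when a control library of replicate 1 (DMSO, 0.056) or 3 (DMSO, 0.078), the DNR library of replicate 3 (0.057), the ML-792 library of replicate 2 (0.090) or all 4 libraries of replicate 2 (0.48) were left out.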

How the results depend on the processing

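The 571 raised and 386 lowered genes in ML-792+DNR vs ML-792 were 504 and 364 without the replicate block, of which 496 and 358 were the same genes, 478 and 342 from the 6 libraries alone, 510 and 352 with DESeq2 and 580 and 374 with limma voom. Only 304 and 252 were left among genes with a mean of at least 1 CPM, where DNR vs DMSO gave 335 and 283. With no fold minimum there were 3203 and 3187 (DNR vs DMSO 2778 and 2989), and at 1.5-fold 1270 and 1157 (1159 and 1123). Leaving out libraries gave 369 to 714 raised and 299 to 486 lowered genes, and 422 to 758 and 359 to 505 in DNR vs DMSO. The lowest counts were without replicate 1.

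The interaction gave 0 more positive and 1 more negative gene, 2 and 8 with DESeq2, 4 and 11 with no count filter, and 0 more negative genes without the replicate block. Leaving out libraries gave 0 more positive and 0 to 9 more negative genes. The median difference of the DNR change ranged from -0.27 to 0.047 for raised and from -0.034 to 0.23 for lowered genes when libraries were left out. It was -0.23 and 0.33 for genes called in DNR vs DMSO, and 0.041 and -0.064 for genes called in ML-792+DNR vs ML-792. The cause was not tested.

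Of 182 called genes named or in a list, 124 kept their call and direction in all of the alternatives in which they were tested, and none changed direction. When libraries were left out, the log2 change of UBA2, which was never called, ranged from -0.060 to 0.0024, and the interaction of CXCL10 from -5.54 to 1.46. With 3 replicates and 1 cell line, changes under 2-fold and genes with few reads are the least certain.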
